A study of Mus musculus with 12 samples.

Results

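The circadian clock genes Per1, Per2, Per3, Cry1, Cry2, Arntl (also called Bmal1), Clock, Nr1d1, Nr1d2 and Dbp were followed in mouse embryonic fibroblasts that lack TSC2. Every probe set whose single gene symbol in the platform's gene table is one of these 10 was taken, which gave 23 of the 45037 probe sets tested and 10 of 18193 named genes. Per3 had 6 probe sets, Clock 4, Per2 3, Arntl, Nr1d2 and Dbp 2 each, and Per1, Cry1, Cry2 and Nr1d1 1 each. No probe set was left out for a low reading, so all 23 entered the tests. The 12 arrays (Affymetrix MOE430 v2) form 4 groups of 3, called biological triplicates in the series text. All cells were TSC2-/- MEFs, and in the first experiment their medium was changed and either 20 nM rapamycin or its vehicle, DMSO, was added for 14 h. In the second experiment confluent cells were infected for 10 h with an adenovirus expressing GFP or PGC-1alpha, the medium was replaced, and RNA was taken 14 h later. No arrays of cells with TSC2 were used here, and the labels give neither the number of MEF lines nor the phase of the cells. Each group was sampled at a single time, so a shift in the phase of the rhythm and a change in mean level cannot be told apart.

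The mammalian clock is a transcriptional feedback loop. CLOCK and BMAL1 (the product of Arntl) bind E-box sequences as a pair and activate the Per and Cry genes, whose proteins return to the nucleus and block the pair. A second loop runs through the nuclear receptors REV-ERBalpha (Nr1d1) and REV-ERBbeta (Nr1d2), which are E-box targets themselves and repress Arntl, Clock and Cry1 at ROR response elements, where the ROR receptors activate. Dbp, another E-box target, encodes a transcription factor that carries the rhythm to D-box genes. Cultured fibroblasts keep such rhythms cell by cell and can be brought into step by a change of medium or serum. PGC-1alpha is known as a coactivator of ROR receptors at the Arntl promoter, and mTOR, the kinase that TSC2 restrains and rapamycin inhibits, is known to affect clock timing.

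The arrays' median intensities lay between 77.5 and 81 units. Between arrays of a group the SD of log2 differences was 0.10 to 0.17. By this measure GFP replicate 3 lay nearer to PGC-1alpha replicates 1, 2 and 3 (0.142, 0.151 and 0.150) than to GFP replicates 1 and 2 (0.155 and 0.167). For the Gapdh control the ratio of 3' to 5' signal was 0.807 to 0.826 with rapamycin and 0.840 to 0.861 with vehicle, without overlap, and 0.894 to 0.905 with PGC-1alpha against 0.865 to 0.879 with GFP. The ratio of the transferrin receptor control ran from 3.81 to 4.17 with rapamycin and from 3.56 to 3.89 with vehicle, higher on average but overlapping, and that of beta-actin from 1.30 to 1.32 and from 1.29 to 1.33. With PGC-1alpha both ratios overlapped those with GFP, at 2.98 to 3.38 against 2.95 to 3.02 and 1.31 to 1.33 against 1.26 to 1.32. The part of these ratios in the results was not tested. Of 12 fibroblast markers, each read by its brightest probe set, 11 were brighter than the median probe set in both experiments (Lum was not). Of all 18193 genes read that way, 11671 were brighter in the rapamycin and 11766 in the PGC-1alpha experiment. Of 6 markers each, 1 endothelial, 2 macrophage and 4 neural ones were brighter too in both experiments, and 4 epithelial ones in the rapamycin and 5 in the PGC-1alpha experiment, so this measure does not set fibroblasts apart from epithelial or neural cells. With rapamycin 6 fibroblast markers rose and 0 fell (summed intensity 63148 to 67521, against 59655 to 61659 with vehicle), and 1 of 6 macrophage markers rose. Of the epithelial markers 2 rose and 1 fell, and of the endothelial and neural markers 0 of 6 each changed. Of all genes 11.3% rose and 18.0% fell with rapamycin. With PGC-1alpha 0 markers of these lists changed, beside 2.01% of all genes. The part of these shifts in the clock results was not tested. The brightest Ppargc1a probe set read 81.0, 81.0 and 101 with GFP and 2295, 2183 and 2554 with PGC-1alpha, in keeping with the labels. With rapamycin 3 of its 4 other probe sets, all dim, fell.

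Rapamycin lowered Cry1 and one probe set of Arntl, raised Nr1d2, and moved Per2, Clock, Dbp and Per3 on part of their probe sets only. With PGC-1alpha none of the 23 probe sets passed the threshold. By limma's moderated test with Benjamini-Hochberg adjustment over all probe sets, 9 of the 23 passed an adjusted p of 0.05 with rapamycin, 4 raised and 5 lowered. The background was 25.5% of all probe sets, 11.5% raised and 14.0% lowered, against 39.1% of the clock probe sets. Taking the brightest probe set of each gene, 4 of 10 passed (Arntl and Cry1 lowered, Nr1d2 and Dbp raised) beside 29.3% of all genes. The median log2 change of the 23 was 0.02, and over all probe sets it was 0.00. Rapamycin and vehicle arrays did not overlap for 12 of the 23 (background 37.9%), and 1 of the 23, Cry1, changed by at least 1.5-fold (background 3.01%). These shares describe the list and show nothing particular to it.

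**Figure D1:**
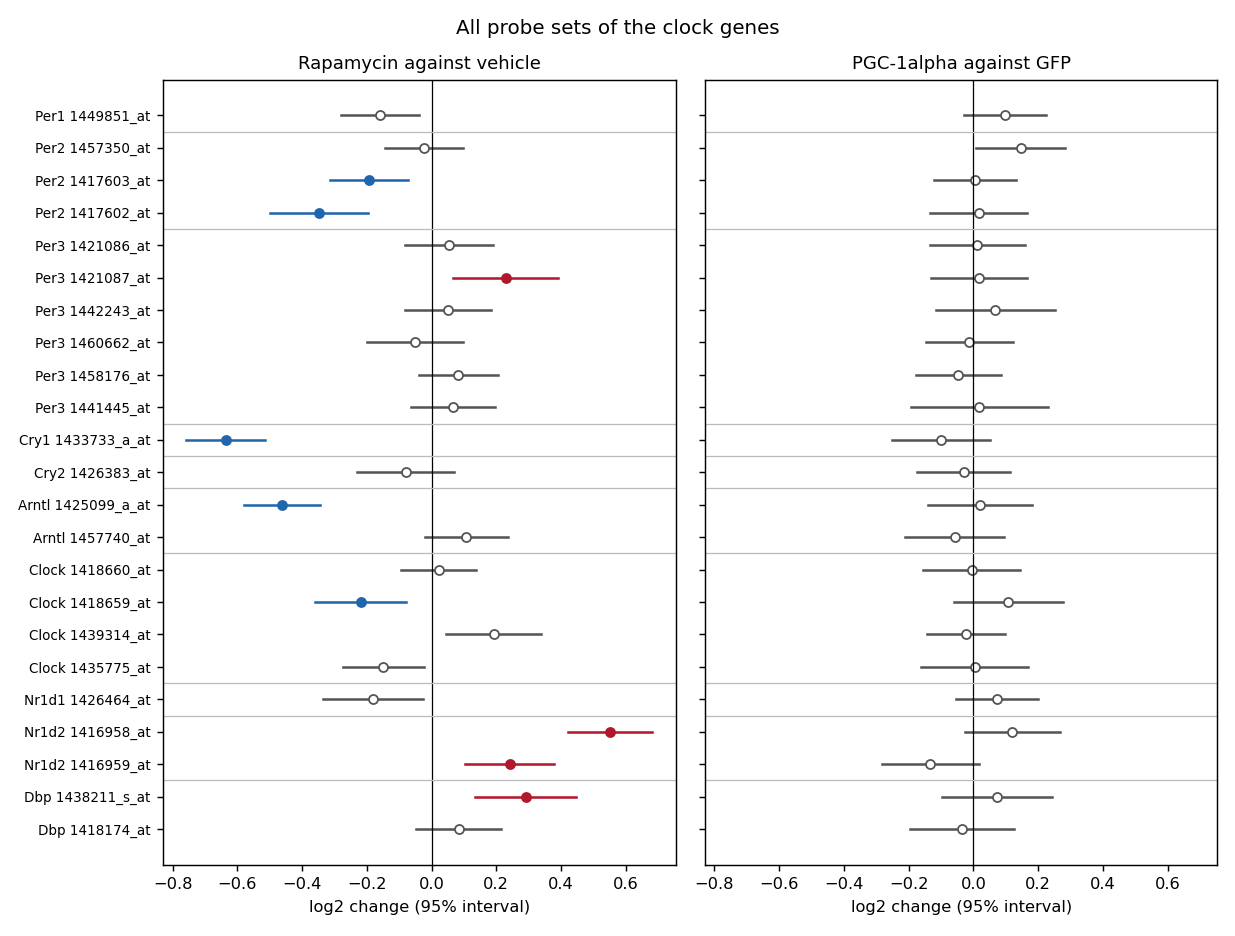
Log2 change (x axis) of each of the 23 probe sets (y axis) with rapamycin against vehicle and with PGC-1alpha against GFP; points are limma estimates from 3 arrays per group, bars 95% intervals, and filled points have an adjusted p under 0.05 (red raised, blue lowered). With rapamycin 9 points are filled, from Cry1 at -0.64 to Nr1d2 at 0.55, and with PGC-1alpha all points lie between -0.13 and 0.15 and are open.

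All changes are relative to the authors' normalization, which makes arrays nearly alike. The hybridization spike controls (BioB, BioC, BioD and Cre) had mean log2 values of 10.62 to 10.83 on rapamycin and 10.50 to 10.60 on vehicle arrays. Scaled on them, the median of all probe sets moved to -0.19, and 1 clock probe set rose while 10 fell, beside 3.22% and 41.2% of all probe sets in that setting. The share of rises among the calls was then 9.09%, against 44.4% as reported. Only the falls of Cry1, Arntl, Per2 and Clock and the rise of the brighter Nr1d2 probe set kept their calls with that scaling. Sizes below are therefore read against the bulk of the other probe sets.

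Cry1 and Cry2 encode the cryptochromes, the stronger repressors of the CLOCK and BMAL1 pair. The Cry1 probe set (1433733_a_at) read 64.5, 71.0 and 68.0 on the vehicle arrays and 42.9, 44.8 and 43.1 on the rapamycin arrays. All 3 rapamycin arrays lay below all vehicle arrays by a margin far above the spread within either group. Cry1 fell 1.55-fold (log2 change -0.64, SE 0.06, 3 arrays a group, adjusted p = 3.36e-06), and 599 of the 45037 probe sets fell more. The call held in every setting in which it was tested, with log2 changes from -0.83 with spike scaling to -0.49 with log2(intensity + 16). Its readings are below the array medians, and without detection calls a dim signal cannot be told from background. Cry2 read 150, 147 and 140 with vehicle and 124, 149 and 141 with rapamycin, with overlap, and did not pass (log2 change -0.08, 95% interval -0.23 to 0.07). With spike scaling Cry2 passed as lowered at -0.27.

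The Cry1 promoter is shown because Cry1 changed most of the 10 genes and its upstream sequence carries the element through which the core loop acts. The 250 bases before the Cry1 start in RefSeq (GRCm38.p6, chr10:85185055-85185304, minus strand), printed 5' to 3' with matches in capitals, hold an E-box (CACGTG) from 60 to 55 bases before the start and a variant E'-box (CACGTT, here on the opposite strand) from 79 to 74 bases before it.
Cry1 upstream: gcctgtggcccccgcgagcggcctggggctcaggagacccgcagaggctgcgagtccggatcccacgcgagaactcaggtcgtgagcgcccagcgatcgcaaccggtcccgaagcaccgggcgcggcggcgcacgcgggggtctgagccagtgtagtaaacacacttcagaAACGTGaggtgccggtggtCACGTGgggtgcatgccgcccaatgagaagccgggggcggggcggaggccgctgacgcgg
The search covered 5 motifs on both strands: the E-box CACGTG, the E'-box CACGTT, the D-box TTANGTAA, the ROR element TAGGTCA and the cyclic AMP element TGACGTCA. RefSeq starts were found for 9 of the 10 genes (13 starts), and Per2 was not searched. Among all 32851 such windows of 250 bases, 6.02% held CACGTG, 3.85% CACGTT, 2.06% TTANGTAA, 2.23% TAGGTCA and 1.55% TGACGTCA. Of the clock genes, the upstream windows of Cry1 and Per1 held CACGTG, those of Cry1, Cry2 and Nr1d1 held CACGTT, and that of Per3 held TTATGTAA at 2 places. A match is a description of letters only, and these windows leave out introns and distant elements.

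The Per genes encode the period proteins, which act with the cryptochromes in the repressor complex. The Per2 probe set 1417602_at read 48.9, 45.8 and 47.9 with vehicle and 33.6, 37.8 and 40.9 with rapamycin. The groups did not overlap, and Per2 fell by 0.35 on the log2 scale there (SE 0.07, adjusted p = 0.00202). Probe set 1417603_at read 85.5, 86.5 and 87.2 against 73.6, 73.3 and 80.0, again without overlap (log2 change -0.19, SE 0.06, adjusted p = 0.0202). That call was lost when any vehicle array, rapamycin replicate 1 or rapamycin replicate 2 was left out (adjusted p = 0.0514 to 0.0657). The third and brightest Per2 probe set, 1457350_at, did not pass, at 105, 99.9 and 101 against 104, 96.1 and 101. The Per2 sets thus differed, with log2 changes of -0.35, -0.19 and -0.02. In the fit on gene means Per2 passed as lowered.

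Per1, the period gene known for a rapid response to serum and stress hormones, read 278, 277 and 294 with vehicle and 260, 258 and 242 with rapamycin. Its groups did not overlap, but the difference missed the threshold (log2 change -0.16, SE 0.06, adjusted p = 0.0536). It passed with spike scaling (-0.35), in the fit over 12 arrays, with log2(intensity + 16), among the brighter probe sets alone and in the fit on gene means. Of the 6 Per3 probe sets 1 passed, 1421087_at, at 105, 86.7 and 89.5 with vehicle and 117, 109 and 103 with rapamycin. The groups overlapped, since vehicle replicate 1 was above rapamycin replicate 3. Per3 rose there by a log2 change of 0.23 (SE 0.08, adjusted p = 0.0398), a call lost without vehicle replicate 2 or 3 or rapamycin replicate 1 or 2 with log2(intensity + 16) and with quantile normalization over 12 arrays. With spike scaling the change was 0.04. The 5 other Per3 sets had log2 changes of -0.05 to 0.08 and overlapping groups. One of them, 1460662_at, passed as lowered with spike scaling (-0.24).

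Arntl and Clock encode the partners of the activating pair. The Arntl probe set 1425099_a_at read 195, 204 and 207 with vehicle and 145, 152 and 142 with rapamycin. The groups were clearly apart, and Arntl fell 1.38-fold (log2 change -0.46, SE 0.05, adjusted p = 3.3e-05). For this set the call held in every setting, from -0.65 with spike scaling to -0.42 with log2(intensity + 16). The second Arntl set, 1457740_at, read 82.7, 79.1 and 79.6 with vehicle and 86.0, 81.7 and 92.6 with rapamycin, with overlap, and did not pass (0.11, 95% interval -0.02 to 0.24). The average of both Arntl sets fell by 0.18 on the log2 scale (adjusted p = 0.00566). A match to the ROR element is shown because the second loop is known to act on Arntl through such elements. Whether this match is used was not tested, and other forms of the element were not searched. RefSeq lists 2 Arntl starts, and TAGGTCA, in capitals, lies 31 to 37 bases after the later one (GRCm38.p6, chr7:113207531-113207557, plus strand).
Arntl site: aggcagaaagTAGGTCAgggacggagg
No match to the 5 motifs was found in the 250 bases before either Arntl start. The match shown lies in the 50 bases after a start, which were searched too. Of all windows lengthened by those 50 bases, 2.61% held TAGGTCA.

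Of the 4 Clock probe sets 1 passed. Clock 1418659_at read 160, 166 and 155 with vehicle and 126, 147 and 141 with rapamycin, with rapamycin replicate 1 lowest and no overlap. Clock fell there by 0.22 on the log2 scale (SE 0.06, adjusted p = 0.0237), and the call was lost without vehicle replicate 1 or 2 or rapamycin replicate 1. The brightest set, 1418660_at, read 250, 267 and 258 against 262, 258 and 267 and did not pass (0.02, 95% interval -0.09 to 0.14). The 2 dimmer sets pointed apart, at 0.19 (1439314_at, adjusted p = 0.0538) and -0.15 (1435775_at, adjusted p = 0.0823), each without overlap between the groups. Set 1439314_at passed as raised among the brighter probe sets alone, in the fit over 12 arrays, with the replicate block and without vehicle replicate 3, and was at 0.00 with spike scaling. Set 1435775_at passed as lowered with spike scaling (-0.34) and without vehicle replicate 3 (-0.20). The Clock probe sets therefore gave no common direction.

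Nr1d2, the REV-ERBbeta repressor gene, was the most raised of the 10. Its brighter probe set, 1416958_at, read 249, 263 and 234 with vehicle and 358, 382 and 352 with rapamycin. Every rapamycin array lay above every vehicle array, far beyond the spread within either group. Nr1d2 rose 1.47-fold (log2 change 0.55, SE 0.06, adjusted p = 1.80e-05), and 657 of the 45037 probe sets rose more. The call held in every setting, from 0.36 with spike scaling to 0.60 with quantile normalization over 12 arrays. The dimmer set, 1416959_at, read 59.2, 52.9 and 50.5 against 64.5, 62.6 and 64.7, without overlap, and rose by a log2 change of 0.24 (SE 0.06, adjusted p = 0.0122). Leaving out vehicle replicate 3 ended that call (adjusted p = 0.057), and with spike scaling the change was 0.05.

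The Nr1d2 upstream sequence is shown beside that of Cry1 as the gene that moved most the other way. In the 250 bases before its RefSeq start (GRCm38.p6, chr14:18239107-18239356, minus strand) none of the 5 motifs was found, so nothing is in capitals.
Nr1d2 upstream: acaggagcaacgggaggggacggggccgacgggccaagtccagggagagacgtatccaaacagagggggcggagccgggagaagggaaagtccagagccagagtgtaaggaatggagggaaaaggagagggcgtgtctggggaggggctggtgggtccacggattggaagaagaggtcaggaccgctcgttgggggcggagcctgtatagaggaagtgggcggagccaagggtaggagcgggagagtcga
Nr1d1, the REV-ERBalpha gene, has 1 probe set, which read 107, 95.5 and 97.7 with vehicle and 79.7, 94.7 and 91.3 with rapamycin. The groups just failed to overlap, and the change of -0.18 (SE 0.07) missed the threshold (adjusted p = 0.0889). It passed as lowered with spike scaling (-0.37), among the brighter probe sets alone and without rapamycin replicate 2. The intervals of the 2 REV-ERB genes did not meet, at -0.34 to -0.02 for Nr1d1 and 0.42 to 0.68 for the brighter Nr1d2 set; the difference between the genes was not tested.

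Dbp encodes a D-box activator of the PAR bZIP family. Its brighter probe set, 1438211_s_at, read 124, 115 and 116 with vehicle and 136, 163 and 137 with rapamycin. Rapamycin replicate 2 stood highest, and the groups did not overlap. Dbp rose there by a log2 change of 0.29 (SE 0.07, adjusted p = 0.00851), a call that was lost with spike scaling (0.10). Affymetrix gives the suffix s to sets whose probes can match transcripts of more than 1 gene. The other Dbp set, 1418174_at, read 77.3, 75.8 and 84.9 against 80.6, 87.7 and 84.0, with overlap, and did not pass (0.08, 95% interval -0.05 to 0.22; -0.11 with spike scaling).

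**Figure D2:**
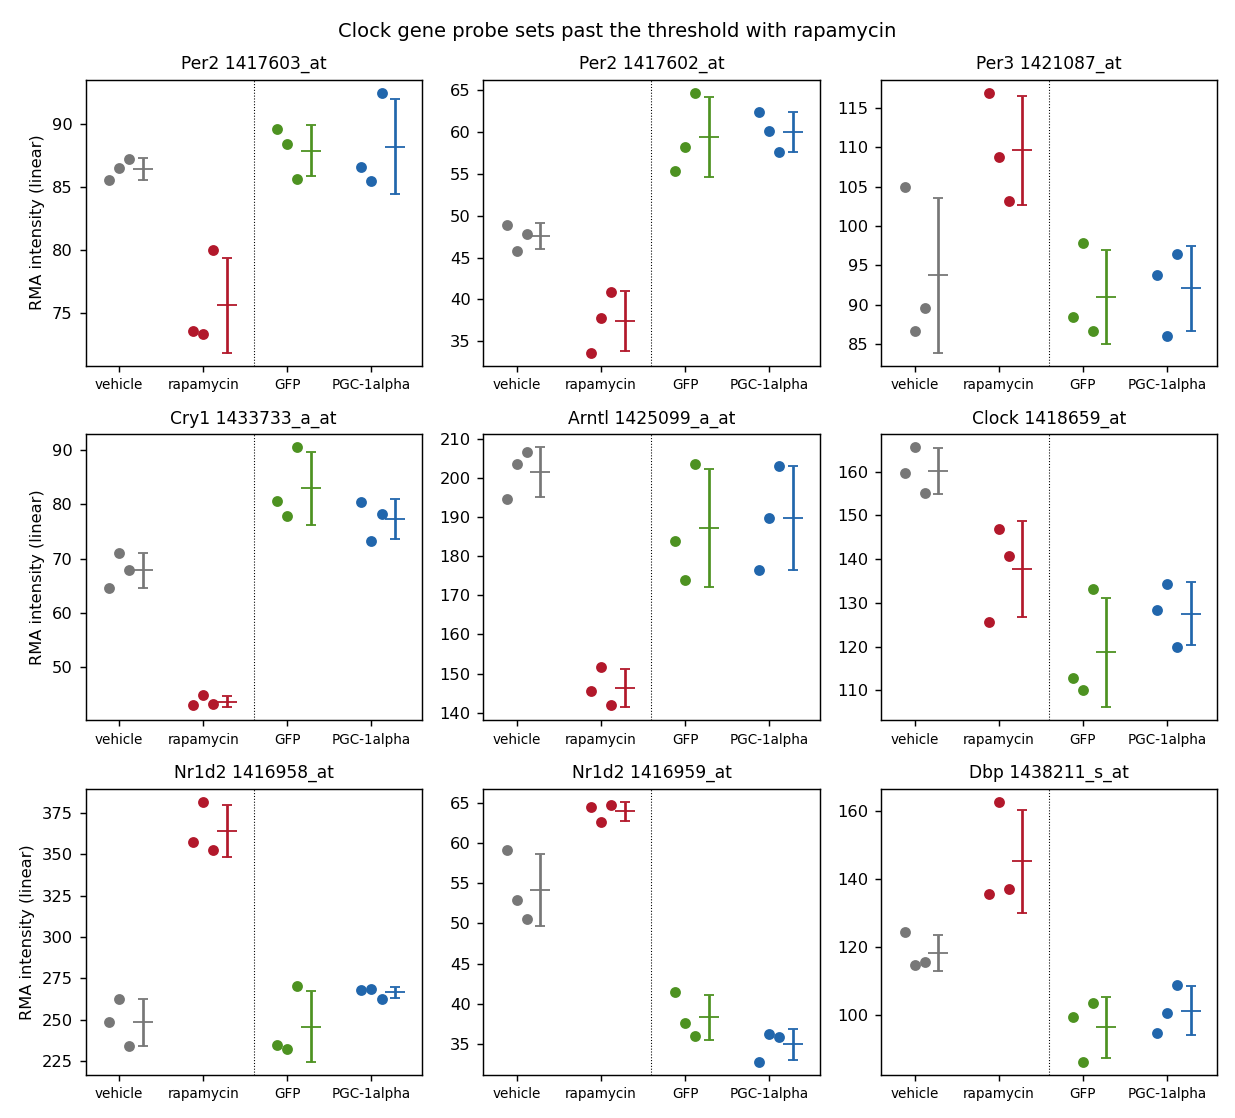
RMA intensity (y axis, linear, not starting at 0) on each array of the 4 groups (x axis) for the 9 probe sets past the threshold with rapamycin; points are arrays, bars the mean and SD (n = 3), and the dotted line separates the 2 experiments, which were normalized apart. Rapamycin and vehicle arrays are apart in 8 of the panels and overlap for Per3, while GFP and PGC-1alpha arrays overlap in all 9.

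Cells with added PGC-1alpha were compared with cells given GFP. Here 0 of the 23 clock probe sets passed with limma, and 1, Per2 1457350_at, had an unadjusted p under 0.05, beside 1.95% and 11.6% of all probe sets. Arntl 1425099_a_at read 184, 174 and 204 with GFP and 176, 190 and 203 with PGC-1alpha. The groups overlapped fully, and the change was 0.02 (95% interval -0.14 to 0.18). Nr1d2 1416958_at read 234, 232 and 270 with GFP and 268, 269 and 262 with PGC-1alpha, a change of 0.12 (SE 0.07, adjusted p = 0.565). GFP replicate 3 stood level with the PGC-1alpha arrays and apart from the other GFP arrays. Cry1 read 80.6, 77.8 and 90.6 with GFP and 80.4, 73.2 and 78.2 with PGC-1alpha, with GFP replicate 3 highest (-0.10, SE 0.07, adjusted p = 0.681).

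The groups did not overlap for 3 of the 23 (background 15.7%): Per1, Per2 1457350_at and Nr1d1, each higher on all PGC-1alpha arrays. Per1 read 239, 236 and 244 with GFP and 268, 245 and 257 with PGC-1alpha (log2 change 0.10, SE 0.06, adjusted p = 0.611). Per2 1457350_at read 103, 103 and 99.6 against 118, 105 and 116 (0.15, SE 0.06, adjusted p = 0.383). Nr1d1 read 99.5, 99.5 and 97.3 against 109, 103 and 99.9 (0.07, SE 0.06, adjusted p = 0.749). The 95% intervals of all 23 sets lay between -0.28 and 0.28, so a change of more than 1.22-fold either way fell outside each of them. Without GFP replicate 3, again 0 of the 23 passed, beside 6.3% of all probe sets, with Nr1d2 1416958_at nearest (0.19, adjusted p = 0.061) and Clock 1418659_at next (0.19, adjusted p = 0.095). Missing the threshold does not show that the clock genes stayed unchanged.

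The difference between the PGC-1alpha and rapamycin effects was tested for each probe set in a fit over all 12 arrays. The experiments differed in handling and were normalized apart, and the part of this in the differences was not tested. The difference passed for 7 of the 23, beside 20.7% of all probe sets, 12.0% upward and 8.7% downward. Cry1 differed by 0.54 (SE 0.09, adjusted p = 0.000214) and Arntl 1425099_a_at by 0.48 (SE 0.09, adjusted p = 0.000785), the PGC-1alpha effect being the higher in both. Cry1 changed by -0.64 with rapamycin and -0.10 with PGC-1alpha, and Arntl by -0.46 and 0.02, so neither was called raised by PGC-1alpha. Per2 1417602_at differed by 0.36 (adjusted p = 0.0134), Clock 1418659_at by 0.33 (adjusted p = 0.0332) and Per1 by 0.26 (adjusted p = 0.0254) in the same direction. The Clock call was lost without vehicle replicate 1 or 2, rapamycin replicate 1, GFP replicate 1 or 2, or PGC-1alpha replicate 1 or 2. The Per1 call was lost without vehicle replicate 3, rapamycin replicate 3, GFP replicate 2, or PGC-1alpha replicate 1 or 3, and with quantile normalization over 12 arrays. Both Nr1d2 sets differed the other way, by -0.43 (adjusted p = 0.00183) and -0.37 (adjusted p = 0.00779). With spike scaling 10 passed in the first direction and 0 in the second, beside 37.1% and 0.928% of all probe sets, and both Nr1d2 calls were lost (-0.07 and -0.02).

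Other clock genes were described by 3 lists, of which 35 genes were measured. With rapamycin 3 of the 35 rose and 15 fell, beside 11.3% and 18.0% of all genes; with spike scaling 0 rose and 25 fell, beside 3.32% and 46.1% of all genes. Among 12 partners of the core loop 6 fell and 1 rose, with a median log2 change of -0.18 against -0.01 over all genes. Tipin fell by 0.57 and Timeless by 0.53 on the log2 scale; both proteins work at the replication fork, and Timeless is named for its fly clock relative. Ciart, an E-box repressor also called Chrono, read 208, 200 and 201 with vehicle and 144, 138 and 147 with rapamycin. Its groups were far apart (log2 change -0.50, SE 0.05, adjusted p = 1.46e-05). Bhlhe40, or Dec1, which competes for E-boxes, read 1115, 1144 and 1064 against 785, 839 and 787 (-0.46, SE 0.06, adjusted p = 3.93e-05). Rora, the activator opposed to REV-ERB, rose by a log2 change of 0.20 (adjusted p = 0.0195) by its brightest set, with 2 of 9 sets raised. That rise was lost with spike scaling (0.01), in the fit over 12 arrays, with the mean over its sets and without vehicle replicate 2 or 3 or rapamycin replicate 2.

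Among 14 kinases, ubiquitin ligases and related regulators of clock proteins 3 fell and 2 rose, beside 18.0% and 11.3% of all genes. Their median log2 change was -0.02, against -0.01 over all genes. These counts lie near the shares of all genes and show nothing particular to the list. Csnk2a2, a casein kinase 2 subunit, fell by 0.27 on the log2 scale, with 5 of its 7 sets lowered. Gsk3b rose by a log2 change of 0.26 with 2 of 6 sets raised, and Sirt1, a deacetylase that acts on PER2, by 0.24. Both rises were lost with spike scaling, at 0.07 and 0.05, that of Gsk3b also with the mean over its sets (0.11), and that of Sirt1 without vehicle replicate 3 or rapamycin replicate 3. Gsk3a fell by 0.19 (adjusted p = 0.0360), a call lost when any single array but rapamycin replicate 2 was left out and with quantile normalization over 12 arrays. Among 9 known output genes 6 fell and 0 rose (median -0.25), beside the same shares of all genes. Nampt, the rate-limiting enzyme of NAD salvage and an E-box target, read 647, 684 and 662 with vehicle and 325, 383 and 365 with rapamycin. All 3 of its probe sets fell, the brightest by 0.90 on the log2 scale (SE 0.06, adjusted p = 8.37e-07). Wee1, a mitotic kinase under E-box control, fell by 0.40, Klf10 by 0.37 and Cdkn1a by 0.31 on the same scale, Cdkn1a in 1 of 2 sets.

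**Figure D3:**
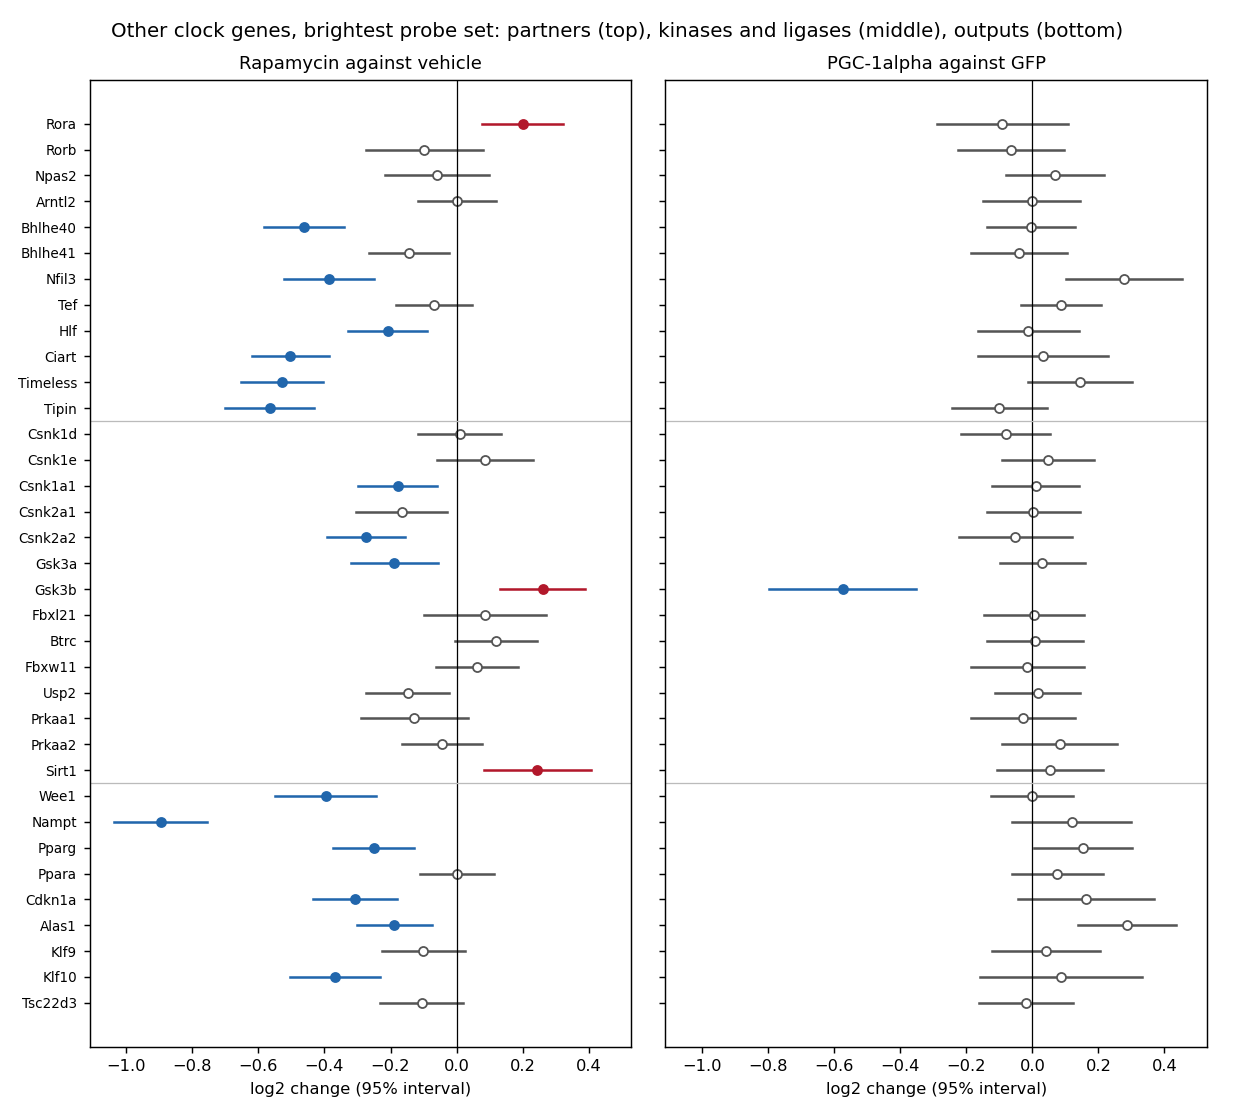
Log2 change (x axis) of the brightest probe set of 35 other clock genes (y axis) in both comparisons; points are limma estimates (n = 3 arrays per group), bars 95% intervals, and filled points passed the threshold (red raised, blue lowered). With rapamycin 15 genes are lowered, led by Nampt at -0.90, and 3 raised, and with PGC-1alpha Gsk3b alone is filled, at -0.57.

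With PGC-1alpha 1 of these 35 genes, Gsk3b, passed by its brightest probe set, beside 2.01% of all genes. Sets other than the brightest were lowered for Csnk2a1 (1 of 6 sets) and Timeless (1 of 2 sets). The Csnk2a1 set with the largest fall read 889, 1035 and 1112 with GFP and 535, 461 and 422 with PGC-1alpha. By its brightest set Csnk2a1 changed by 0.00 (adjusted p = 0.995), and it is named after its values were seen. Gsk3b read 1257, 1386 and 1565 with GFP and 1047, 992 and 794 with PGC-1alpha by its brightest set (log2 change -0.57, SE 0.10, adjusted p = 0.0138), but 1 of its 6 sets fell. The call was lost without GFP replicate 2 or PGC-1alpha replicate 3, with log2(intensity + 16), with the mean over its sets (-0.11) and with spike scaling (-0.41). Without GFP replicate 3 the count was 5, and the share of all genes called rose to 7.67% (6.6% raised, 1.07% lowered). Nfil3 (0.38, adjusted p = 0.00355), Alas1 (0.36, adjusted p = 0.00339), Pparg (0.22, adjusted p = 0.0353) and Klf10 then rose beside the fall of Gsk3b; Klf10 is named after its values were seen. Nfil3 encodes a D-box repressor and Alas1 the first enzyme of heme synthesis, heme being the ligand of the REV-ERB receptors. With all arrays Nfil3 read 247, 227 and 291 with GFP and 307, 310 and 305 with PGC-1alpha (0.28, adjusted p = 0.131). Alas1 read 264, 258 and 303 against 331, 331 and 343 (0.29, adjusted p = 0.0566). Alas1 passed with quantile normalization over 12 arrays, among the brighter probe sets alone, in the fit over 12 arrays and with the replicate block. In both genes every PGC-1alpha array lay above every GFP array, and GFP replicate 3 was the highest of its group. Timeless did not pass by its brightest set (0.14, adjusted p = 0.485), but 1 of its 2 sets was lowered. The dimmer set read 315, 332 and 319 with GFP and 251, 229 and 229 with PGC-1alpha, without overlap. The mean over the Timeless sets changed by -0.15 on the log2 scale and did not pass (adjusted p = 0.264). With rapamycin Nfil3 fell by 0.39 on the log2 scale (adjusted p = 0.000419).

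The clock probe set with the smallest adjusted p was that of Cry1. After centring each experiment's 6 arrays, the genes whose log2 values lay nearest to Cry1 over the 12 arrays were Nudcd1, Mcm10 and Cdt1, at root mean square distances of 0.041, 0.043 and 0.044. Mcm10 and Cdt1 act in the start of DNA replication. With rapamycin they changed by -0.68, -0.63 and -0.58 on the log2 scale, and with PGC-1alpha by -0.08, -0.07 and -0.02. This likeness among 18183 other genes is a description of 12 arrays.

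**Figure D4:**
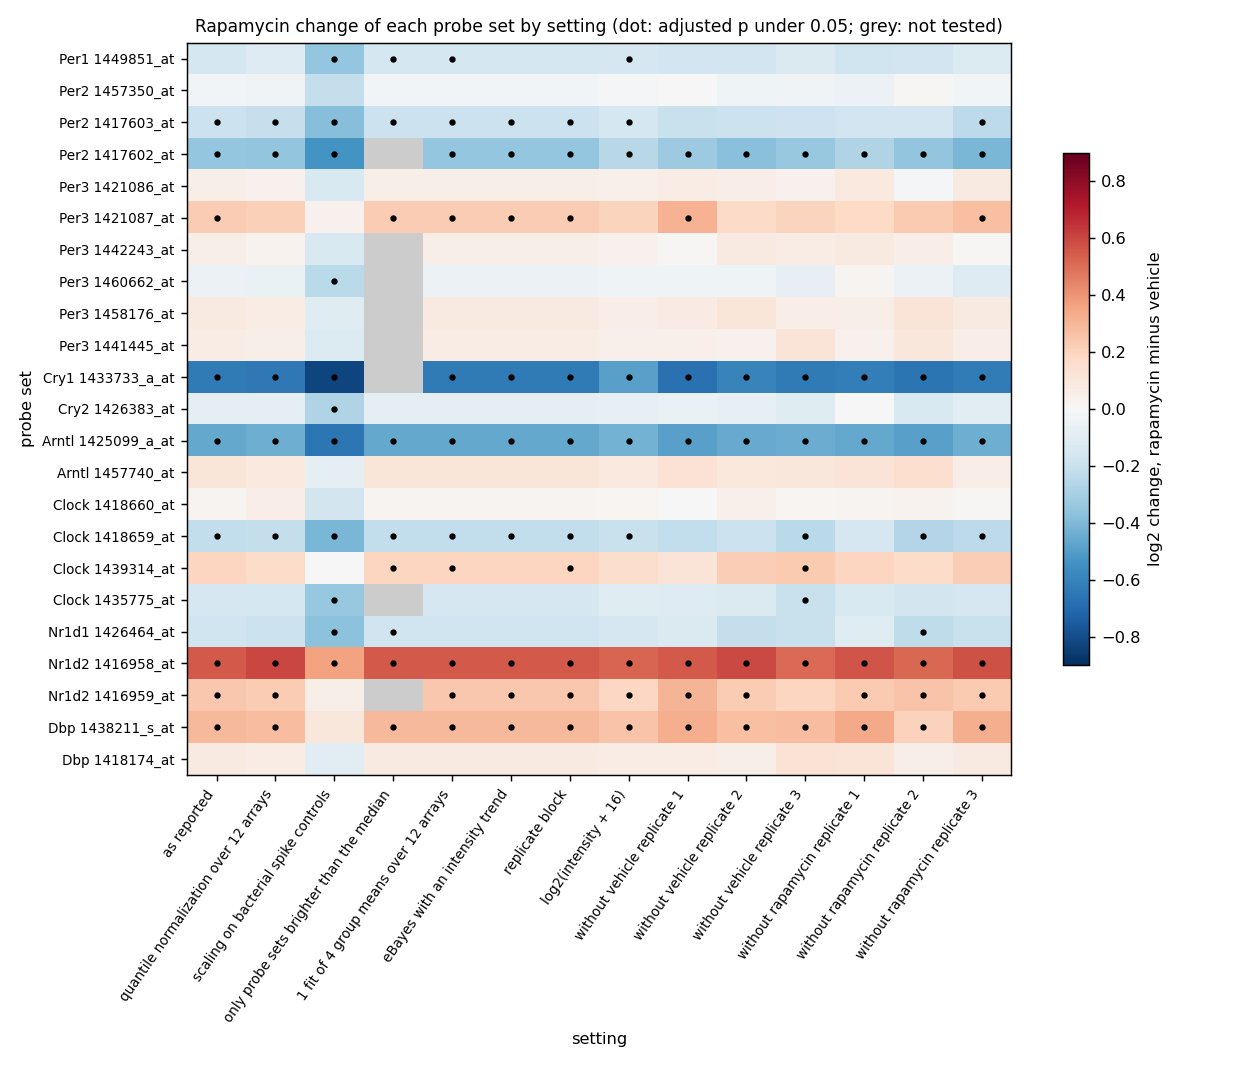
Log2 change with rapamycin (colour) of the 23 probe sets (y axis) under each setting of the analysis (x axis), with dots where the adjusted p was under 0.05 and grey where a set was not tested. Arntl 1425099_a_at and the brighter Nr1d2 set carry a dot in all 14 columns and Cry1 in the 13 where it was tested, while Per3, Clock and the second Per2 set lose theirs in several columns that leave out 1 array.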

How the data were processed

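Per the series text and the labels, the authors deposited an intensity per probe set, made by default RMA (BioConductor 1.2), run apart for the rapamycin and for the infection experiment. Their scale was not stated, and values from 9.299 to 21072.43 were taken as linear and logged (log2) without a pseudocount. RMA corrects background, quantile-normalizes a batch and summarises probes, so changes are relative to other probe sets and levels were set side by side only inside a batch. No detection calls were used.

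The 64 control probe sets were left out, and limma 3.58.1 (lmFit, eBayes, R 4.3.3) was run for each comparison on the 6 arrays concerned, two-sided, with Benjamini-Hochberg adjustment over 45037 probe sets and a threshold of 0.05. Errors are moderated SE. A fit of 4 group means over 12 arrays gave the difference of the effects. Of the probe sets 34945 had 1 gene symbol, 932 several and 9160 none listed; the platform table was used for names, updated by Entrez ID to RefSeq (GRCm38.p6), where 34741 were found. The probe set with the highest mean over 12 arrays stands for a gene. The series text calls the arrays biological triplicates, but the labels do not say whether they came from separate cultures. The p-values therefore measure the spread between these arrays, which may be technical in part. Alternatives were quantile normalization over 12 arrays, scaling on the mean log2 of the BioB, BioC, BioD and Cre controls, the probe sets brighter than the median, 1 fit over 12 arrays, an intensity trend, the replicate block, log2(intensity + 16), means over a gene's probe sets, and leaving out each array.

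The 10 genes and the lists (clock partners, kinases and ligases, outputs, cell type markers) were chosen with earlier results of these data known. Named were all 10 genes, and per list and comparison up to 4 called genes of largest change and 1 of the opposite direction, or the 2 with the smallest p. Some listed clock genes are not reported here. The fits were tested on simulated data with independent normal noise for each probe set, which leaves out differences shared across an array. Tables and figures were made in Python 3.11.15 (pandas 2.3.3, matplotlib 3.10.9).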

Additional observations from a re-analysis of the deposited data

How the results depend on the processing

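For the 23 clock probe sets, the number called with rapamycin was 9 as reported, beside 25.5% of all probe sets. It was 8 to 11 under the other settings (beside 24.8% to 45.5%) and 6 to 9 when 1 array was left out (beside 20.3% to 26.0%). The number called with PGC-1alpha was 0 in every setting run, beside 0.628% to 6.3% of all probe sets. The number with different effects ran from 5 to 10, beside 18.1% to 38.0%. With the brighter probe sets alone, 15, 13 and 14 of the 23 were tested for these counts. The member genes called by the brightest probe set with rapamycin numbered 4 to 6, beside 23.8% to 49.4% of all genes. The replicate block gave 10, 0 and 7 for these 3 counts of probe sets, and moved the calls over all probe sets from 11469 to 11371 with rapamycin and from 879 to 831 with PGC-1alpha. The labels share only numbers: correlations of same-numbered arrays' deviations were -0.05, 0.07 and 0.00 with rapamycin and -0.13, 0.23 and -0.01 with PGC-1alpha, so arrays were not treated as pairs. Of the 35 other clock genes, 13 to 25 passed with rapamycin. The 13 was found without rapamycin replicate 3, beside 24.3% of all genes, and the 25 with spike scaling, beside 49.4%. With the brighter probe sets alone, 29 of the 35 were tested with rapamycin and 31 with PGC-1alpha. With PGC-1alpha 1 passed as reported, beside 2.01% of all genes. Quantile normalization over 12 arrays, the brighter probe sets alone, the fit over 12 arrays and the replicate block each gave 2. Spike scaling, log2(intensity + 16) and the mean over a gene's probe sets gave 0. Those settings called 0.951% to 4.16% of all genes. Without single arrays the count was 0 to 5, beside 0.544% to 7.67% of all genes. No result among those named changed sign while past the threshold. The 3 arrays per group limit the precision, and 8 of the 23 probe sets were dimmer than the median probe set in the rapamycin comparison and 10 in the PGC-1alpha comparison. The cause of the moved counts was not tested.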
